A study of Mus musculus with 18 samples.

Results

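The genes described here encode the glutathione transferases and the UDP-glucuronosyltransferases of the mouse liver. They were taken from the rows of the count table by their symbols: the Gsta, Gstk, Gstm, Gsto, Gstp, Gstt and Gstz genes, the microsomal Mgst genes, and the Ugt1a, Ugt2a, Ugt2b and Ugt3a genes. The rule found 46 of the 55487 rows, of which 22 were glutathione transferases of the alpha, kappa, mu, omega, pi, theta and zeta classes, 3 were microsomal glutathione transferases and 21 were glucuronosyltransferases. The last name covers all Ugt symbols here, including the Ugt3a genes, which were taken by symbol alone. Each group had 6 male mice of the strain C57BL/6J, and the liver RNA of each mouse gave 1 of the 18 libraries. CON-GFP mice were given an adeno-associated virus carrying GFP and fed a purified control diet. FPC-GFP mice had the GFP virus and a high-fat diet with added fructose, palmitate and cholesterol (FPC), together with fructose and glucose in the drinking water. FPC-LIPA mice had the FPC diet and a virus carrying human LIPA, which encodes lysosomal acid lipase (LAL). In all groups the transgene stood behind the hepatocyte promoter TBG in an AAV8 particle, injected 1 week before 16 weeks of diet in mice bought at 7 weeks of age, and livers were taken after a fast of 4 hours. FPC-GFP against CON-GFP addressed the diet, and FPC-LIPA against FPC-GFP addressed LAL overexpression on that diet.

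Glutathione transferases join the tripeptide glutathione to reactive electrophiles, which makes them more soluble and less toxic. Microsomal members sit in membranes and also reduce lipid peroxides, and the zeta enzyme works in tyrosine breakdown. Enzymes of the Ugt1a and Ugt2 genes sit in the endoplasmic reticulum and transfer glucuronic acid from UDP-glucuronic acid to bilirubin, bile acids, steroids and drugs. The conjugates leave the cell through ABC transporters. Hepatocytes are the main site of both reactions, and many of these genes are known targets of the transcription factor NRF2 (Nfe2l2) or of the xenobiotic receptors AHR, PXR (Nr1i2) and CAR (Nr1i3).

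Many members lie in clusters of related genes, coordinates being those of GRCm38 with GENCODE M21 annotation. The 7 Gstm genes lie on chromosome 3 between 107895821 and 108044894, and Gsta4, Gsta1 and Gsta2 on chromosome 9 between 78182774 and 78355788, while Gsta3 lies alone on chromosome 1. The 9 Ugt1a genes on chromosome 1 (88055388 to 88220002) are alternative first exons joined to shared later exons, and the 7 Ugt2b genes lie on chromosome 5 (86889767 to 87424203). The sequences below are the 120 bases before the annotated exon at the RefSeq start (GRCm38.p6) of the 6 genes that passed the 2-fold threshold on the diet and of Gsta2, the neighbour of Gsta1. They are shown so that promoters of genes that moved together can be compared, and capitals mark the letters GCGTG, the core of the xenobiotic response element. For Gsta2 a longer annotated transcript begins further upstream, at 78355788, so its stretch lies in an intron of that transcript.
Gsta1, chr9:78230536-78230655, plus strand: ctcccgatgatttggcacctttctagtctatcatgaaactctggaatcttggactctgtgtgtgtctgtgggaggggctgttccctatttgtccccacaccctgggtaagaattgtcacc
Gsta2, chr9:78347169-78347288, minus strand: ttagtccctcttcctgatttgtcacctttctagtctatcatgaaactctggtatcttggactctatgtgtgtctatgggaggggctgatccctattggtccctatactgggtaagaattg
Gstm3, chr3:107969284-107969403, minus strand: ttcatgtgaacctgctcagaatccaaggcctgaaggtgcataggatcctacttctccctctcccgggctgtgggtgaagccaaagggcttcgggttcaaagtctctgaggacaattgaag
Gstm2, chr3:107986454-107986573, minus strand: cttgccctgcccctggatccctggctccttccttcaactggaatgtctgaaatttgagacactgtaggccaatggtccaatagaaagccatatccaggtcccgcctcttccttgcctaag
Gstm1, chr3:108017974-108018093, minus strand: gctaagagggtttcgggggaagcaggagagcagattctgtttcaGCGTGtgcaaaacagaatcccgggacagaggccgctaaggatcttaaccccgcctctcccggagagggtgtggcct
Gstm4, chr3:108044895-108045014, minus strand: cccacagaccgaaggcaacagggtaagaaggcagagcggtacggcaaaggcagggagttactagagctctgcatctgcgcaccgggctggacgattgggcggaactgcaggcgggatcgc
Mgst3, chr1:167393842-167393961, minus strand: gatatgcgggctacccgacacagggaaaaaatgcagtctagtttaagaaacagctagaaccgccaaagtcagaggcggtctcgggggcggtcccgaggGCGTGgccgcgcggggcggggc

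The Gsta1 and Gsta2 stretches were 79.8% identical over their alignment, and no other pair of the 7 exceeded 54.4%. Promoters from 250 bases before to 50 bases after the start were found in RefSeq for 42 members, with 51 starts. On either strand, GCGTG was in 10 of these 51 promoters and in 32.4% of all 32851 mouse promoters of that length. Beside the copies in capitals, it lay in the Gsta1 promoter 2 bases before the RefSeq start and in that of Gsta2 7 bases before it, both outside the stretch printed. The antioxidant response element core, TGACNNNGC, was in 4 member promoters and in 12.4% of all, and none of the 7 genes printed had it in these 300 bases. The STAT5 motif TTCNNNGAA was in 5 member promoters (8.30% of all) and the PXR and CAR repeat unit TGAACT in 4 (13.99% of all). These are counts of letters and not of bound sites.

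Total counts per library ran from 16632146 to 37739301. Of the groups, FPC-LIPA was the least uniform: 83 genes of cytosolic ribosomal proteins took 6.48, 8.09 and 8.15% of counts in mice 36, 37 and 39, and 2.16 to 2.95% in mice 34, 33 and 31, against 1.44 to 1.80% in FPC-GFP and 1.75 to 2.54% in CON-GFP. Results of FPC-LIPA are therefore also given for mice 31, 33 and 34 alone, a choice made after seeing the data. The label of each library ends in a number, called the sheet number here, which is 55 to 68 except in CON-GFP 1 (73), CON-GFP 2 (80), FPC-GFP 20 (79) and FPC-LIPA 37 (a higher number, titled 37b), and results among numbers 55 to 68 leave these 4 out. The mice of a group are separate animals. The summed level of 8 hepatocyte markers such as Alb and Apoa1 was 79331 to 114958 CPM (counts scaled to the size of the library) in CON-GFP, 69186 to 96849 in FPC-GFP and 59196 to 88743 in FPC-LIPA. Monocyte and macrophage markers summed to 57.4 to 128 CPM, 162 to 428 CPM and 505 to 841 CPM in the same order, and 7 of these 8 markers passed an adjusted p of 0.05 as higher on the FPC diet, and 6 of 8 as higher with LAL. All 6 Kupffer cell markers were higher on the diet, with sums of 104 to 220.4 CPM in CON-GFP against 294 to 521 CPM in FPC-GFP, and 3 of 6 were higher with LAL. On the diet 2 of 5 stellate and 2 of 5 endothelial markers were also higher, and 1 of 8 hepatocyte markers was lower, by at least 2-fold. No marker of the other cell types looked at passed on the diet. Of all genes tested, 12.9% were higher and 10.9% lower at that adjusted p on the diet, and 14.4% and 6.87% with LAL. With LAL 2 of 4 red blood cell markers (sums of 165 to 373 CPM in FPC-GFP against 426 to 2502 in FPC-LIPA), 2 of 3 neutrophil markers tested (2.61 to 6.01 against 7.24 to 18.7), 2 of 4 B cell markers (1.15 to 6.87 against 6.01 to 19.1), 1 of 4 T cell markers (1.17 to 3.15 against 1.67 to 7.13) and 3 of 5 stellate cell markers (190.1 to 265 against 275 to 944) were also higher at that adjusted p, and no marker of hepatocytes, endothelium or cholangiocytes passed it. The part of these other cells in the results on transferases was not tested. In whole liver, fewer hepatocytes and less RNA per hepatocyte cannot be told apart. Mouse Lipa was 247 ± 33.7, 340 ± 61.4 and 293 ± 51.2 CPM (SD, n = 6) in CON-GFP, FPC-GFP and FPC-LIPA, and since the human transgene has no row it was not measured by this table.

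The 3 families together took 1.35 to 1.54% of counts in CON-GFP, 1.33 to 2.04% in FPC-GFP and 1.62 to 3.18% in FPC-LIPA. Glutathione transferases summed to 5937 ± 800 CPM in CON-GFP, 7676 ± 1304 in FPC-GFP and 8123 ± 732 in FPC-LIPA (SD, n = 6). Microsomal members summed to 5429 ± 900, 4559 ± 447 and 10123 ± 7031 CPM, and glucuronosyltransferases to 3945 ± 471, 3459 ± 583 and 5186 ± 2392 CPM. The large SD of the latter 2 families in FPC-LIPA came from mice 36, 37 and 39. Their microsomal sums were 13158, 22020.2 and 11748 CPM against 3356 to 5356 in the other 3 mice, and their glucuronosyltransferase sums were 7190.1, 8252 and 6327 CPM against 2311 to 3696.

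**Figure D1:**
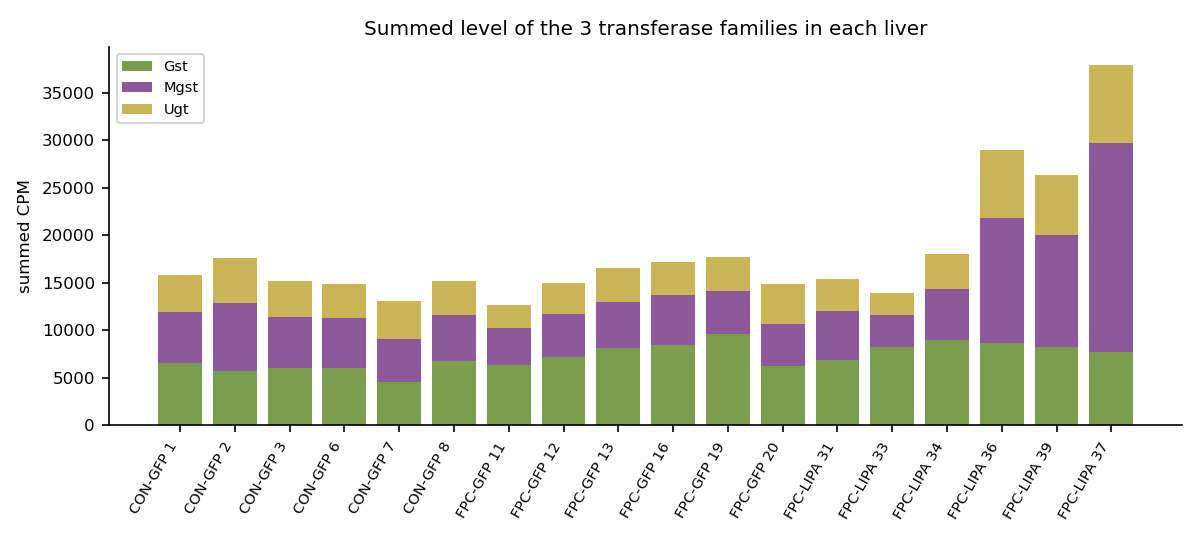
Summed level in CPM of the Gst, Mgst and Ugt genes, stacked, in each of the 18 livers. The Mgst and Ugt sums of FPC-LIPA mice 36, 37 and 39 stand above all others, and the Gst sum lies between 4522 and 9602 CPM throughout.

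A few genes carried each family. Mgst1 gave 99.0% of the microsomal sum, Gsta3 and Gstm1 gave 30.0% and 29.3% of the glutathione transferase sum, and Ugt2b36 and Ugt2b5 gave 27.9% and 24.2% of the glucuronosyltransferase sum. Ugt1a1 gave 3.15% of the last sum. How reads in the exons shared by the Ugt1a genes were counted is not known, so their part may be too low. Per kilobase of exon (RPKM), Mgst1 was the highest member in CON-GFP at 2682 ± 451, followed by Gstm1 at 577 ± 182, Gsta3 at 494 ± 97.8, Ugt2b5 at 453 ± 55.2, Ugt2b36 at 432 ± 42.3 and Gstp1 at 429 ± 173. These 5 after Mgst1 did not differ from their neighbours beyond their SD. Next came Ugt1a1, the bilirubin enzyme, at 352 ± 81.8 RPKM over the 385 bases of its exon that no other gene overlaps. Left out were bases overlapped by other Ugt1a genes or by Gm20528 on the opposite strand. Gstz1, also overlapped on the opposite strand, was divided by its full exon length, so the rank of Ugt1a1 is uncertain. Then came Gstz1 at 247 ± 18.4, Gstt1 at 245 ± 38.9, Ugt2b1 at 232 ± 87.2 and Ugt2a3 at 152 ± 29.4. Ugt2b34 followed at 118 ± 24.3, Ugt3a2 at 114 ± 14.8, Gstk1 at 107 ± 13.2 and, further down, Gsto1 at 36.3 ± 9.73. On the FPC diet Gstm1 stood at 2192 ± 752 RPKM, next to Mgst1 at 2229 ± 220. The other end of the range held 9 members that were too low to be tested: Gsto2, Gstt4, Mgst2, Ugt1a2, Ugt1a7c, Ugt1a8, Ugt1a10, Ugt2a1 and Ugt2a2. Of these, 4 had at most 3 counts in every library, among them Ugt2a1 and Ugt2a2 at 0. The same 37 members passed the filter on low counts in each comparison.

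Of 37 members tested in FPC-GFP against CON-GFP, 6 rose at least 2-fold with an adjusted p under 0.05 in edgeR's quasi-likelihood test, and none fell by as much. Among all 14307 genes tested, 7.20% were called at this threshold, 4.76% higher and 2.44% lower. The 6 were Gstm1, Gstm2, Gstm3 and Gstm4, Gsta1 and Mgst3. At an adjusted p under 0.05 with no fold minimum, 9 members were higher and 2 lower, and 23.8% of all genes were called, 12.9% higher and 10.9% lower. The median log2 fold change was 0.04 over the 37 members and 0.01 over all genes. At an unadjusted p under 0.05, 5 members were lower, and DESeq2's Wald test also called none lower at 2-fold.

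The mu class gave 4 of the 6. Gstm1, the main mu enzyme of mouse liver, had a median of 827 CPM (528 to 1299.8) in CON-GFP, of 3033 CPM (2172 to 5156) in FPC-GFP and of 1915 CPM (898 to 3973) in FPC-LIPA. Every FPC-GFP liver lay above every CON-GFP liver, and the log2 fold change was 1.93 (SE 0.24, adjusted p = 0.000189). Gstm3 showed the largest fold of all members, from 9.48 to 22.6 CPM (median 13.8) in the CON-GFP livers to 36.1 to 298 CPM (median 94.2) in those of FPC-GFP. The groups did not overlap, and the log2 fold change was 3.03 (SE 0.46, adjusted p = 0.000637). FPC-LIPA livers had 44.4 to 205 CPM (median 142). The spread was wide within FPC-GFP, where mouse 19 was highest at 298 CPM and mouse 20 lowest at 36.1 CPM.

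Gstm4 was 21.3 to 46.1 CPM (median 31.1) in CON-GFP and 72.4 to 185 CPM (median 101) in FPC-GFP. These groups were also apart, with a log2 change of 1.85 (SE 0.22, adjusted p = 0.000185). Gstm2 was 24.1 to 42.8 CPM (median 35.3) in CON-GFP and 29.5 to 123.1 CPM (median 87.6) in FPC-GFP, with a log2 change of 1.24 (SE 0.27, adjusted p = 0.00472). Here FPC-GFP 20, at 29.5 CPM, lay inside the CON-GFP range. In FPC-LIPA Gstm2 was 39.6 to 135 CPM (median 79.9) and Gstm4 37.3 to 116 CPM (median 71.0). In all 10.4% of the genes tested had no overlap between these groups, and so did 6 of the 37 members.

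The other 3 mu genes were Gstm5, Gstm6 and Gstm7, whose log2 fold changes were -0.06, 0.19 and -0.05 (adjusted p = 0.702, 0.325 and 0.800). Their levels in FPC-GFP were 9.86 to 75.8 CPM. In chromosome order the genes read Gstm5, Gstm7, Gstm6, Gstm3, Gstm2, Gstm1 and Gstm4, so the 4 that rose were neighbours at one end of the cluster, from 107963696 to 108044894. The promoters of these 4 printed above had no more than 51.0% identity with each other, and of the motifs named above only Gstm1 held one. The stretches were not aligned at the same place: they end at 0 (Gstm1), -33 (Gstm2), -38 or -35 (Gstm4) and -109 (Gstm3) from the RefSeq start. A pair from different classes, Gsta2 and Gstm2, reached 54.4%, so these identities cannot tell whether the promoters of the 4 differ.

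**Figure D2:**
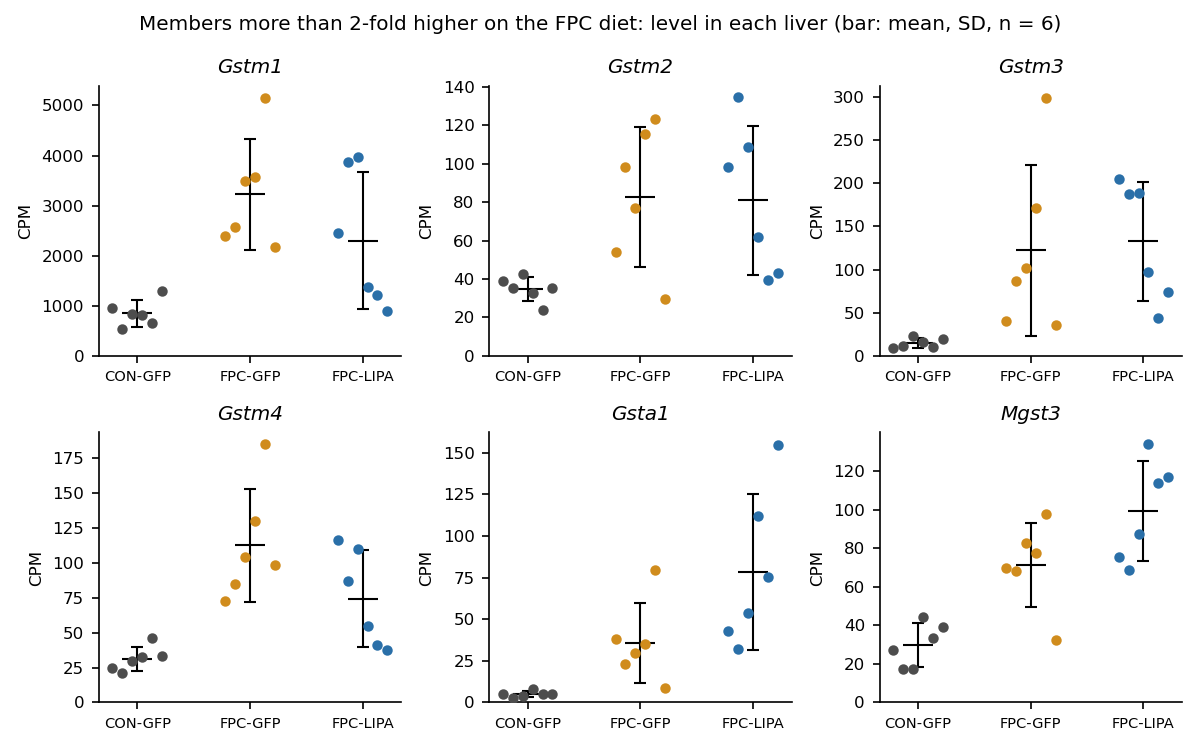
Level in CPM of Gstm1 to Gstm4, Gsta1 and Mgst3 in each liver by group, with 1 point per mouse and the mean and SD (n = 6) in black, on axes that start at 0. FPC-GFP lies above CON-GFP without overlap for Gstm1, Gstm3, Gstm4 and Gsta1, and 1 FPC-GFP liver lies within the CON-GFP range for Gstm2 and for Mgst3.

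In the alpha class, whose enzymes also reduce organic hydroperoxides, Gsta1 rose from 2.79 to 7.81 CPM (median 4.86) in the CON-GFP livers to 8.56 to 79.8 CPM (median 32.3) in those of FPC-GFP. The groups did not overlap, although FPC-GFP 20 at 8.56 CPM came close to CON-GFP 6 at 7.81 CPM, and the log2 fold change was 2.85 (SE 0.39, adjusted p = 0.000349). Gsta4, which acts on the lipid peroxidation product hydroxynonenal, went from 47.8 ± 10.4 CPM on the control diet to 77.7 ± 24.6 CPM on the FPC diet (SD, n = 6), with a log2 change of 0.70 (SE 0.21, adjusted p = 0.0245). Gsta2 was 25.5 ± 8.34 and 45.1 ± 19.9 CPM, with a log2 change of 0.82 (SE 0.27, adjusted p = 0.0364). Both rose by less than 2-fold with overlapping groups, and both calls were lost when FPC-GFP 19 was left out, at adjusted p = 0.0618 and 0.0955. Leaving out either FPC-GFP 13 or FPC-GFP 16 also ended them (0.0515 and 0.0509 for Gsta4, 0.0591 and 0.0738 for Gsta2), and for Gsta2 so did leaving out CON-GFP 2, 3, 6 or 7 (0.0658 to 0.0756). In a fit of all 18 libraries Gsta4 was not called (0.177). Gsta3, the highest alpha gene per kilobase and the one outside the chromosome 9 cluster, went from 1449 to 2617 CPM (median 2248) in the CON-GFP livers to 1466 to 2039 CPM (median 1740.3) in those of FPC-GFP, with a log2 change of -0.29 (SE 0.15, adjusted p = 0.155).

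Mgst3, a microsomal enzyme with glutathione transferase and peroxidase activity, was 17.3 to 44.2 CPM (median 30.3) in CON-GFP and 32.2 to 97.5 CPM (median 73.6) in FPC-GFP. Its log2 fold change was 1.26 (SE 0.26, adjusted p = 0.00391), and FPC-GFP 20 alone lay within the CON-GFP range. In FPC-LIPA it was 68.9 to 134 CPM (median 101). Mgst1, far more abundant, was 4564 to 7133 CPM (median 5232) in CON-GFP and 3788 to 5149 CPM (median 4442) in FPC-GFP, with a log2 change of -0.27 (SE 0.13, adjusted p = 0.151). Gstz1, the maleylacetoacetate isomerase, fell from 1257 ± 93.7 to 847 ± 125 CPM (SD, n = 6), with a log2 change of -0.57 (SE 0.12, adjusted p = 0.00415) and no overlap between groups. In a fit of all 18 libraries together its call was lost (adjusted p = 0.129).

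The pi, theta, omega and kappa classes did not pass either threshold on the diet in edgeR's test of the 12 libraries. Gstp1 ran from 284 to 1033 CPM (median 689) in CON-GFP and from 349 to 809 CPM (median 547) in FPC-GFP, with a log2 change of -0.25 (SE 0.27, adjusted p = 0.527). Gstt1 was 271 to 422 CPM (median 398) and 221 to 385 CPM (median 336), with -0.19 (SE 0.14, adjusted p = 0.340). Gsto1 was 55.2 to 102 CPM (median 65.4) and 88.5 to 113 CPM (median 92.4), with 0.39 (SE 0.15, adjusted p = 0.0679). Gstk1, of mitochondria and peroxisomes, was 158 ± 19.4 and 127 ± 26.2 CPM, with -0.31 (SE 0.14, adjusted p = 0.107). The remaining members of these classes lay between -0.54 (Gstt3) and 0.42 (Gstt2). In other edgeR fits, Gsto1 was called higher without CON-GFP 1 or without CON-GFP 8 (adjusted p = 0.0417 and 0.0168). It was also called with a trend with gene length removed (0.0497) and with library size alone as the scale (0.00795). Gstt2 was called higher without FPC-GFP 11 (0.0451) and with library size alone (0.0271), and Gstt3 lower without CON-GFP 7 (0.00942).

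Among 15 glucuronosyltransferases tested, none passed 2-fold and 2 passed an adjusted p under 0.05, where 7.20% and 23.8% of all genes did. Ugt2a3 fell from 232 to 418 CPM (median 312) in the CON-GFP livers to 131 to 222 CPM (median 184) in those of FPC-GFP without overlap, with a log2 change of -0.84 (SE 0.17, adjusted p = 0.00356). Ugt1a6b, an enzyme for phenols, was 24.9 ± 5.48 and 33.9 ± 2.48 CPM, with 0.45 (SE 0.13, adjusted p = 0.0250). This small increase was lost among libraries with sheet numbers 55 to 68 (adjusted p = 0.116), in the fit of all libraries (0.252) and without CON-GFP 1, FPC-GFP 12 or FPC-GFP 19 (0.0552, 0.0503 and 0.0504). Ugt1a1 ran from 101 to 191 CPM (median 131) in CON-GFP and from 139 to 209 CPM (median 155) in FPC-GFP, with 0.28 (SE 0.15, adjusted p = 0.184). Ugt1a5 and Ugt1a9 had log2 fold changes of 0.98 (SE 0.35, adjusted p = 0.0546) and 0.91 (SE 0.33, adjusted p = 0.0575), and without CON-GFP 8 or without FPC-GFP 20 both were called 2-fold higher. The same held with library size alone as the scale. DESeq2's Wald test and a fit with no filter on low counts called both at an adjusted p under 0.05. Neither was called in a fit of all 18 libraries or among sheet numbers 55 to 68. Ugt1a9 was also called 2-fold higher without FPC-GFP 11. EdgeR called Ugt1a1 higher without CON-GFP 8 (adjusted p = 0.0427) and with library size alone (0.0345).

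The Ugt2b genes, which act on steroids and bile acids, did not pass either threshold on the diet in edgeR's test of the 12 libraries. At an adjusted p under 0.05, Ugt2b1 was called lower by DESeq2's Wald test. EdgeR called it lower without CON-GFP 7, without CON-GFP 8 or without FPC-GFP 20. Ugt2b36 was 784 to 1029 CPM (median 895) in CON-GFP and 529 to 904 CPM (median 855) in FPC-GFP, with a log2 change of -0.15 (SE 0.14, adjusted p = 0.448). The other 6 lay between -0.62 (Ugt2b1, SE 0.24, adjusted p = 0.0715) and 0.97 (Ugt2b37, SE 0.76, adjusted p = 0.364), the latter resting on FPC-GFP 11 at 44.6 CPM beside 1.37 to 4.70 CPM in the other 5. Ugt3a2 was 303 to 431 CPM (median 346) and 223 to 315 CPM (median 309.9), with -0.26 (SE 0.12, adjusted p = 0.134), and Ugt3a1 had 0.01 (SE 0.14, adjusted p = 0.957).

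**Figure D3:**
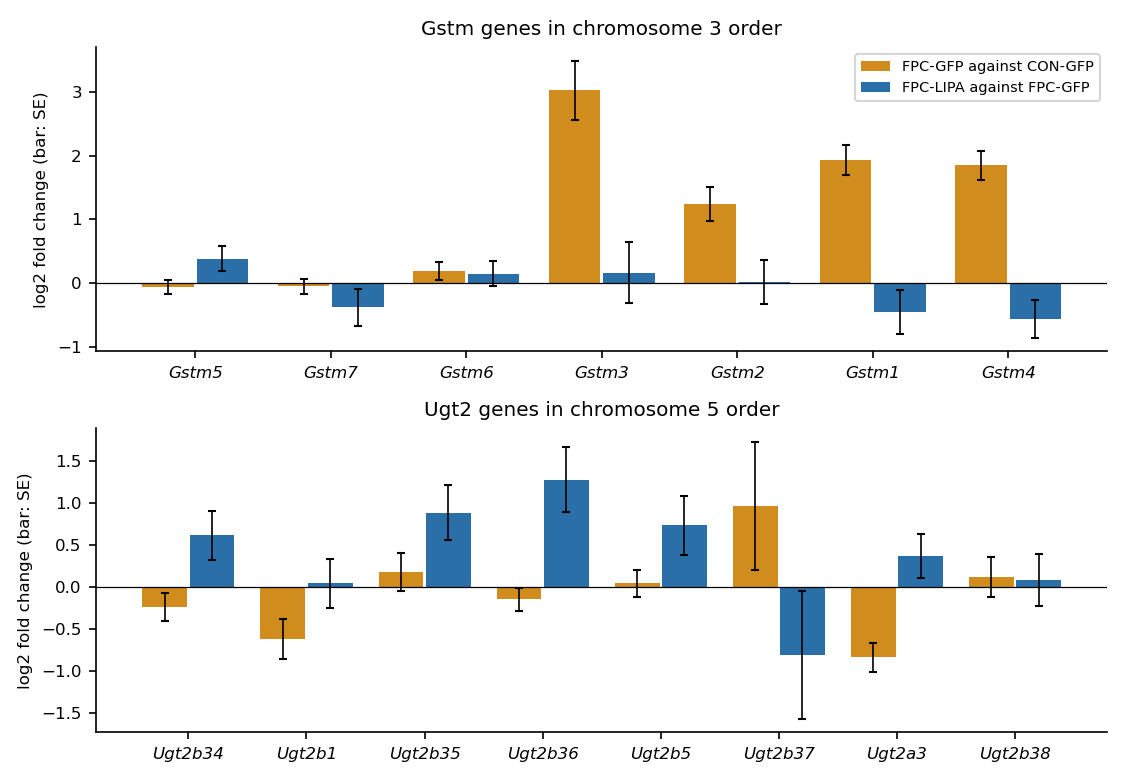
Log2 fold change with SE of the tested Gstm genes of chromosome 3 and Ugt2 genes of chromosome 5, in chromosome order, for FPC-GFP against CON-GFP (orange) and FPC-LIPA against FPC-GFP (blue), which share the FPC-GFP livers. Gstm3, Gstm2, Gstm1 and Gstm4 are neighbours with diet values of 1.24 to 3.03, while Gstm5, Gstm7 and Gstm6 lie between -0.06 and 0.19.

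Some members share sequence with near copies, so their counts are uncertain where reads map to several places. Of the 100-base windows of Gsta1 transcripts, 81.8% also occurred in other genes, mostly in Gm3776 (71.3%), and for Gsta2 the share was 24.8%. Gm3776 was 1.41 ± 0.56 CPM in CON-GFP against 9.04 ± 5.72 CPM in FPC-GFP, with a log2 change of 2.70 (SE 0.44, adjusted p = 0.00101). The share was 13.8% for Gstm3, 6.17% for Gstm1, 0.548% for Gstm2 and 0 for Gstm4 and Mgst3. Gstm2-ps1 and Gm8834, which share windows with Gstm1 and Gstm3, were also higher on the diet, with log2 fold changes of 1.97 (SE 0.26, adjusted p = 0.000235) and 2.00 (SE 0.22, adjusted p = 9.41e-05). These near copies were chosen after the sharing had been seen. In the Ugt1a cluster, 95.7% of Ugt1a6a, 70.9% of Ugt1a6b and 57.2% of Ugt1a1 windows were shared, and 38.4% of Gstp1 windows were in Gstp2.

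In FPC-LIPA against FPC-GFP, which shares the FPC-GFP livers with the diet comparison, 3 of 37 members rose at least 2-fold (Gsta4, Mgst1 and Ugt2b36) and none fell by as much, where 11.4% of all 14620 genes were called, 10.3% higher and 1.11% lower. With no fold minimum 4 were higher and 2 lower, against 21.2% of all genes, 14.4% higher and 6.87% lower. The median log2 fold change was 0.04 over members and 0.04 over all genes. At an unadjusted p under 0.05, 4 members were lower, and DESeq2's Wald test called none lower at 2-fold. With FPC-LIPA 31, 33 and 34 alone, edgeR called 0 members under either threshold, and 1 was higher and 2 lower at an unadjusted p under 0.05. Of all 15246 genes tested in those libraries, 0.761% were called at 2-fold, 0.728% higher and 0.0328% lower, and 1.22% at an adjusted p under 0.05.

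Gsta4 was 97.6, 98.7 and 144 CPM in FPC-LIPA 31, 33 and 34 and 307, 365 and 208 CPM in FPC-LIPA 36, 37 and 39, against 39.0 to 106 CPM (median 80.6) in FPC-GFP. Its log2 fold change was 1.48 (SE 0.36, adjusted p = 0.0187), and it held when any 1 library was left out (highest adjusted p 0.0466), though not among libraries with sheet numbers 55 to 68 (0.0797). With mice 31, 33 and 34 alone it was 0.56 (adjusted p = 0.250). Mgst1 was 5023, 3287 and 5268 CPM in those 3 mice and 13023, 21903 and 11634 CPM in FPC-LIPA 36, 37 and 39, where FPC-GFP ran from 3788 to 5149 CPM. The log2 fold change of 1.26 (SE 0.40, adjusted p = 0.0391) became 0.02 (adjusted p = 0.958) without mice 36, 37 and 39. Ugt2b36 behaved likewise, at 901, 633 and 905 CPM in mice 31, 33 and 34, at 2579, 3087 and 2827 CPM in mice 36, 37 and 39, and at 529 to 904 CPM in FPC-GFP. Its log2 fold change of 1.28 (SE 0.39, adjusted p = 0.0345) became 0.03 (adjusted p = 0.953). Both calls also depended on single libraries: without any 1 of the 6 FPC-GFP livers or of FPC-LIPA 36, 37 and 39, the adjusted p was 0.0629 to 0.0980 for Mgst1 and 0.0555 to 0.0822 for Ugt2b36.

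Gstz1 was 1399 ± 575 CPM in FPC-LIPA and 847 ± 125 CPM in FPC-GFP (SD, n = 6), with a log2 change of 0.80 (SE 0.26, adjusted p = 0.0445). Gsto1, an enzyme with thioltransferase and dehydroascorbate reductase activity, was 34.1 to 87.4 CPM (median 63.4) in FPC-LIPA and fell without overlap, with -0.57 (SE 0.19, adjusted p = 0.0413). Of all genes tested here, 7.66% had no overlap between these groups, and Gsto1 was the only such member of 37. Ugt1a6b fell from 33.9 ± 2.48 to 18.3 ± 9.36 CPM, with -0.85 (SE 0.26, adjusted p = 0.0368). With mice 31, 33 and 34 alone these 3 values were 0.15, -0.34 and -0.37 (adjusted p = 0.624, 0.200 and 0.219). Leaving out any 1 FPC-GFP liver or FPC-LIPA 36, 37 or 39 ended these calls as well, at adjusted p of 0.0677 to 0.109 for Gstz1, 0.0588 to 0.0858 for Gsto1 and 0.0550 to 0.0838 for Ugt1a6b, and for Gsto1 so did leaving out FPC-LIPA 31 (0.0557).

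**Figure D4:**
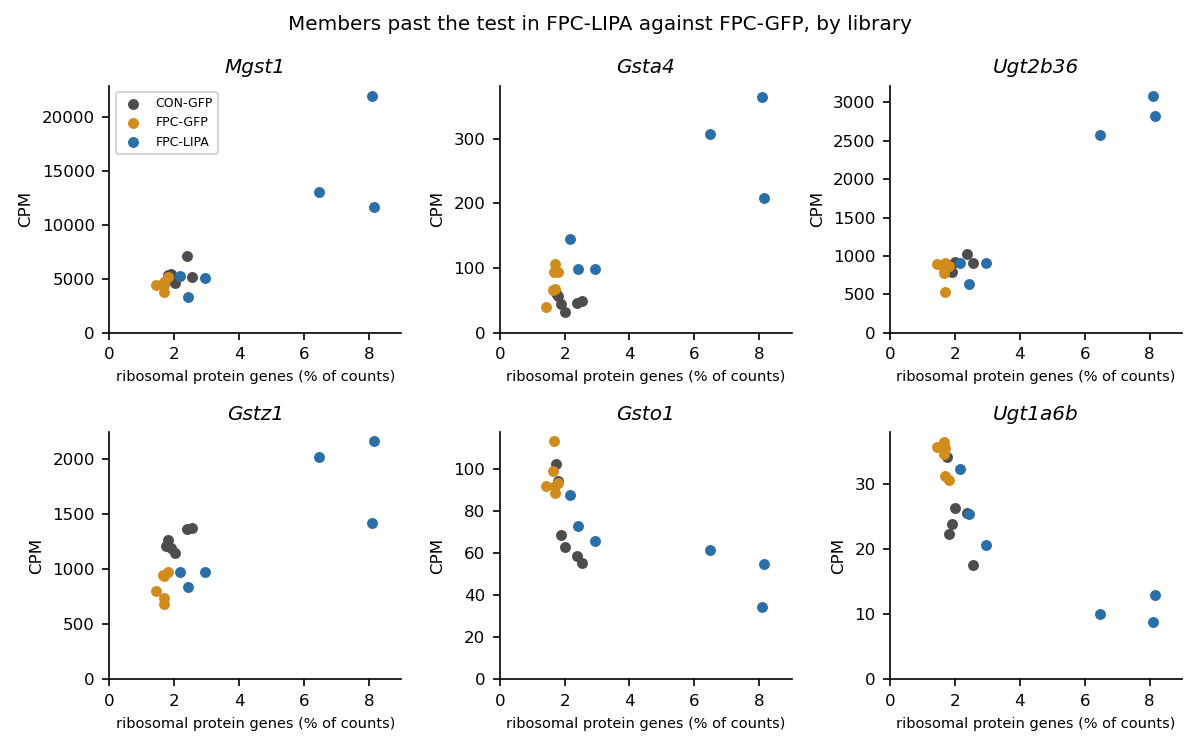
Level in CPM of the 6 members past an adjusted p of 0.05 in FPC-LIPA against FPC-GFP, plotted against the percent of counts on ribosomal protein genes in the same library, with 1 point per liver. The 3 FPC-LIPA livers at 6.48 to 8.15% lie above all others for Mgst1, Gsta4, Ugt2b36 and Gstz1, and below all others for Ugt1a6b.

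The same 3 livers stood apart for members that were not called. Gstm1 was 1383, 898 and 1213 CPM in FPC-LIPA 36, 37 and 39 and 2447, 3879 and 3973 CPM in FPC-LIPA 31, 33 and 34, the latter within the FPC-GFP range, and its log2 fold change was -0.45 (SE 0.35, adjusted p = 0.341). Gsta3 was 3220.1, 3843 and 3197 CPM in the former and 1747, 1788 and 2018 CPM in the latter, with 0.67 (SE 0.24, adjusted p = 0.0590). Ugt1a1 was 56.4, 25.6 and 85.7 CPM in the former and 96.4, 135 and 180 CPM in the latter, with -0.73 (SE 0.33, adjusted p = 0.109). Gstk1 was 74.1, 39.0 and 69.6 CPM against 94.2, 129 and 118 CPM, with -0.50 (SE 0.24, adjusted p = 0.135). Mgst1 and Gstm1, the highest members per kilobase in FPC-GFP, thus stood on opposite sides of the FPC-GFP range in these 3 livers. The part in the calls of what sets these libraries apart was not tested.

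The 6 genes that rose 2-fold on the diet did not pass either threshold with LAL in edgeR's test of these 12 libraries. Besides Gstm1, Gsta1 had a log2 change of 1.23 (SE 0.47, adjusted p = 0.0680), Gstm2 0.02 (SE 0.35, adjusted p = 0.976), Gstm3 0.16 (SE 0.48, adjusted p = 0.818), Gstm4 -0.56 (SE 0.30, adjusted p = 0.168) and Mgst3 0.56 (SE 0.25, adjusted p = 0.115). Gsta1 ran from 31.9 to 155 CPM (median 64.5) in FPC-LIPA, above all CON-GFP livers. Gsta1 was called 2-fold higher with LAL by DESeq2's Wald test (1.26, adjusted p = 0.0271), in a fit of all 18 libraries (1.23, 0.0335), without FPC-GFP 19 (1.63, 0.0380) and without FPC-LIPA 33 (1.40, 0.0268). It was under 2-fold and not called with a trend with gene length removed (0.60, adjusted p = 0.279) or with library size alone as the scale (0.93, 0.140). The same held among sheet numbers 55 to 68 (0.67, 0.243), without FPC-LIPA 37 (0.87, 0.176) and with mice 31, 33 and 34 alone (0.28, 0.779). Of the leading genes of other classes, Gstp1 was 231 to 502 CPM (median 405), Gstt1 277 to 353 CPM (median 315), Ugt2a3 117 to 312 CPM (median 222) and Ugt3a2 194 to 362 CPM (median 231), with log2 fold changes of -0.45, 0.00, 0.37 and -0.13 (adjusted p = 0.165, 0.988, 0.305 and 0.632).

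**Figure D5:**
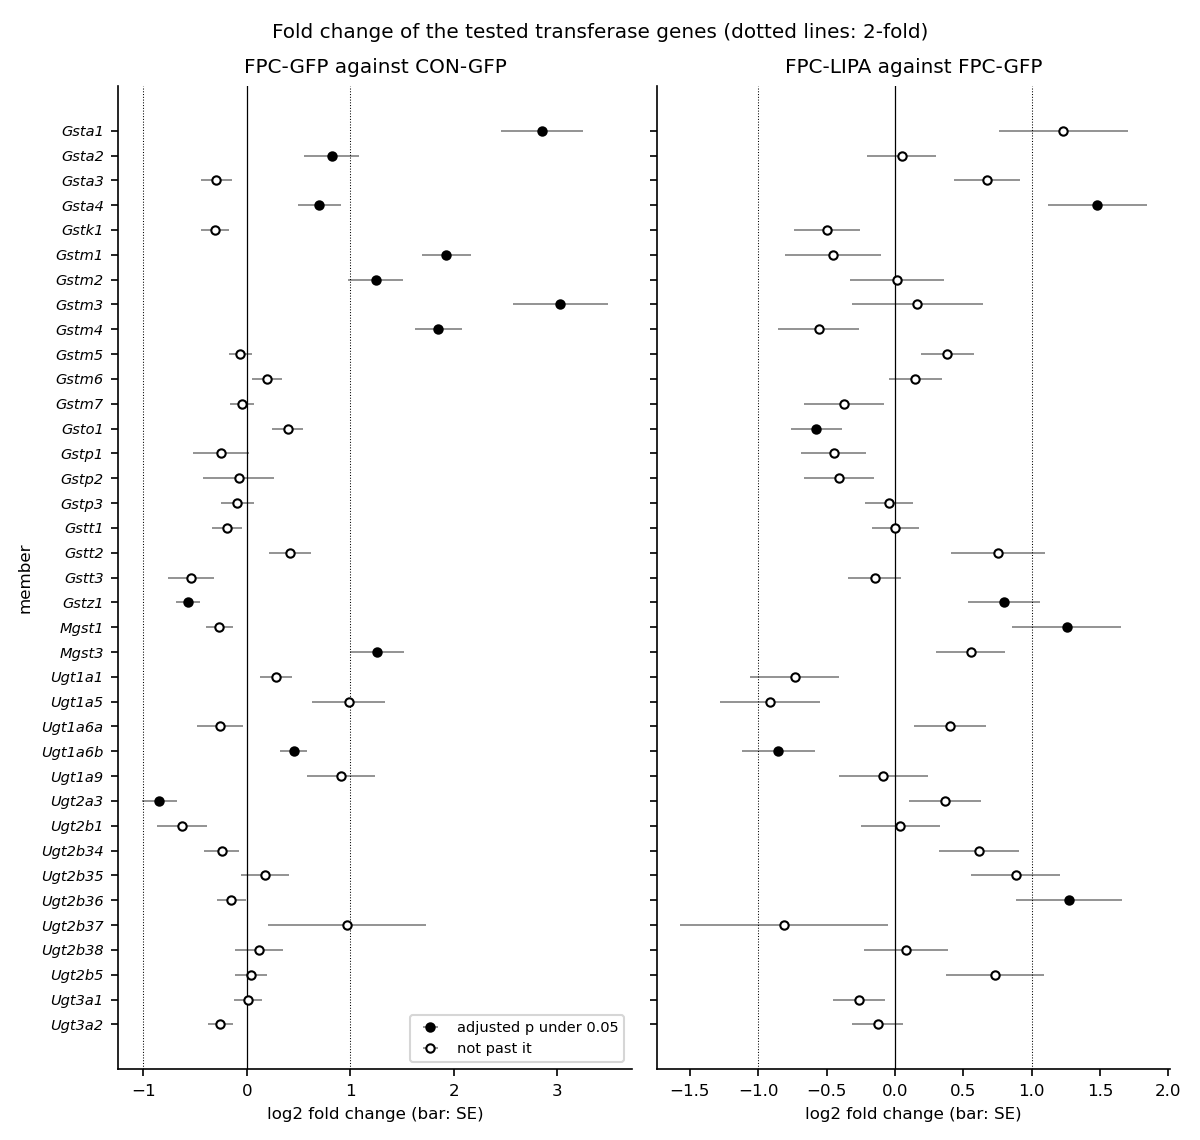
Log2 fold change with SE of the 37 tested members in FPC-GFP against CON-GFP and in FPC-LIPA against FPC-GFP, filled where the adjusted p was under 0.05, with dotted lines at 2-fold. On the diet Gsta1 and Gstm1 to Gstm4 stand to the right at 1.24 to 3.03, and with LAL the filled points run from -0.85 (Ugt1a6b) to 1.48 (Gsta4).

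FPC-LIPA against CON-GFP shares livers with both comparisons and is given beside them. Here 10 members rose at least 2-fold and none fell, with 15.1% of 14433 genes called, 11.8% higher and 3.25% lower. At an unadjusted p under 0.05, 4 members were lower, and DESeq2's Wald test called none lower at 2-fold. The log2 fold changes of the 6 diet genes were 4.04 for Gsta1, 3.18 for Gstm3, 1.78 for Mgst3, 1.47 for Gstm1, 1.28 for Gstm4 and 1.24 for Gstm2. Gsta4 (2.14), Gstt2 (1.14), Ugt2b36 (1.08) and Ugt2b35 (1.02) were the others. With no fold minimum Gsta2, at 44.7 ± 8.56 CPM in FPC-LIPA, was also higher (0.84, SE 0.21, adjusted p = 0.0120), and Gstk1 (87.3 ± 33.3 CPM in FPC-LIPA) and Gstt3 (36.4 ± 11.5 CPM in CON-GFP, 24.9 ± 6.32 in FPC-GFP and 21.6 ± 4.72 in FPC-LIPA) were lower (-0.82 and -0.71, adjusted p = 0.0235 and 0.0419), beside 22.9% of all genes, 14.7% higher and 8.20% lower. The Gstt3 call was lost in 9 of the 12 fits that left out 1 library (adjusted p 0.0597 to 0.0973), namely those without CON-GFP 1, 2, 3, 6 or 8 or FPC-LIPA 31, 36, 37 or 39, and that of Gstk1 without FPC-LIPA 39 (0.0503). Among libraries with sheet numbers 55 to 68 neither was called (0.229 for Gstt3 and 0.0729 for Gstk1), nor with library size alone as the scale (0.0994 and 0.119) or with mice 31, 33 and 34 alone (0.163 and 0.0672). The Gsta2 call was lost when a trend with gene length was removed (0.0804).

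Gstt2 was 50.6 to 98.9 CPM (median 66.8) in CON-GFP, 53.1 to 120 CPM (median 96.6) in FPC-GFP and 79.7 to 335 CPM (median 104) in FPC-LIPA, the highest being FPC-LIPA 39. Without that library its log2 fold change was 0.72 (adjusted p = 0.0492), under 2-fold, and without CON-GFP 3 or CON-GFP 7 the adjusted p was 0.0534 and 0.0548. Ugt2b35 was 114 to 243 CPM (median 146), 111 to 266 CPM (median 165) and 127 to 521 CPM (median 301) in the same order. The Ugt2b35 call was lost without CON-GFP 1, 3, 6 or 8 or FPC-LIPA 36, 37 or 39 (adjusted p 0.0545 to 0.0756), and that of Ugt2b36 without any 1 CON-GFP liver or FPC-LIPA 36, 37 or 39 (0.0646 to 0.109). With FPC-LIPA 31, 33 and 34 alone against CON-GFP, 7 members were higher at 2-fold: Gstm1 (2.03), Gstm2 (1.73), Gstm3 (3.71), Gstm4 (1.76), Gsta1 (3.13), Gsta4 (1.27) and Mgst3 (1.39). There 11.4% of all 15113 genes were called, 8.80% higher and 2.60% lower, and 18.0% at an adjusted p under 0.05. Gstt2, Ugt2b35 and Ugt2b36 were not called (0.44, 0.33 and -0.11, adjusted p = 0.154, 0.438 and 0.692), and Ugt2a3 and Ugt2b1 were 2-fold lower, with -1.05 (adjusted p = 0.00446) for Ugt2a3. Thus Gstm1 to Gstm4, Gsta1, Gsta4 and Mgst3 were called against control with and without the 3 livers of high ribosomal share.

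The pathway around these enzymes was read from 5 lists, chosen with earlier results of these data known. Of 15 genes of glutathione supply and turnover tested on the diet, 3 were higher and 2 lower at an adjusted p under 0.05, beside the 23.8% of all genes called, 12.9% higher and 10.9% lower, against which the other lists on the diet also stand. The higher ones were Gclc, whose product makes gamma-glutamylcysteine, Gss, which adds glycine to it, and Gsr, which returns oxidized glutathione to its reduced form. Gclc was 362 ± 121 CPM in CON-GFP against 615 ± 244 CPM in FPC-GFP (log2 fold change 0.77, SE 0.25, adjusted p = 0.0378), Gss 70.0 ± 17.2 and 127 ± 26.1 CPM (0.87, SE 0.17, adjusted p = 0.00271) and Gsr 47.1 ± 9.46 and 71.2 ± 11.6 CPM (0.60, SE 0.14, adjusted p = 0.00665). The lower ones were Chac2, which degrades glutathione (-0.83, adjusted p = 0.0126), and Hagh, of the glyoxalase pathway (-0.41, adjusted p = 0.0180). The median of the list was 0.07, beside 0.01 for all genes.

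For glucuronidation, 3 of 4 genes of UDP-glucuronic acid were higher on the diet and none lower: Ugdh, which makes it (0.91, adjusted p = 0.00443), Slc35d1, a carrier of nucleotide sugars (0.37, adjusted p = 0.0292), and Gusb, the lysosomal beta-glucuronidase (0.40, adjusted p = 0.0172). Ugdh was 130 ± 33.4 CPM in CON-GFP against 244 ± 69.2 CPM in FPC-GFP. Among 7 exporters of conjugates, Abcc4 rose from 1.34 to 2.55 CPM in the CON-GFP livers to 5.51 to 29.2 CPM in those of FPC-GFP without overlap (2.83, SE 0.38, adjusted p = 0.000257). Abcc1 (0.98, adjusted p = 0.00923) and Abcc5 (0.62, adjusted p = 0.0453) were also higher, and none was lower.

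Of 11 receptors and factors, Nfe2l2, which encodes NRF2, and Keap1, its inhibitor, were higher on the diet (0.41 and 0.34, adjusted p = 0.0293 and 0.0456). Lower were Ahr (-0.76, adjusted p = 0.0185), Nr1h4, which encodes the bile acid receptor FXR (-0.34, adjusted p = 0.0354), Nr1i2 (-0.67, adjusted p = 0.00994) and Nr1i3 (-0.70, adjusted p = 0.0144). Of 8 indicator genes, the NRF2 targets Nqo1 (0.80, adjusted p = 0.0161), Srxn1 (2.02, adjusted p = 0.00865) and Txnrd1 (0.55, adjusted p = 0.0126) were higher, and the AHR target Cyp1a2 was lower, from 307 ± 83.8 to 142 ± 32.7 CPM (-1.11, SE 0.20, adjusted p = 0.00177). The PXR and CAR targets Cyp3a11, Cyp2c29 and Cyp2b10 and the AHR target Cyp1a1 did not pass the threshold. Srxn1 ranged from 72.0 to 606 CPM within FPC-GFP.

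With LAL, 4 of 16 genes of glutathione supply and turnover were higher: Gpx4 (1.93, adjusted p = 0.0124) and Gpx1 (0.81, adjusted p = 0.0400), both peroxidases, Ggt5 (1.17, adjusted p = 0.0145) and Chac2 (1.57, adjusted p = 0.0307), while Oplah was lower (-0.55, adjusted p = 0.0484). Of all genes 21.2% were called in this comparison, 14.4% higher and 6.87% lower. Slc35d1 was lower (-0.80, adjusted p = 0.0136), and none of the 7 exporters passed. Hnf4a and Rxra, factors of hepatocyte gene expression, were lower (-0.98 and -0.95, adjusted p = 0.0425 and 0.0183), and so was Keap1 (-0.54, adjusted p = 0.0443). Nqo1 (1.18, adjusted p = 0.0326) and Cyp3a11 (1.41, adjusted p = 0.0204) were higher, and Cyp1a2 (-0.91, adjusted p = 0.0297) and Cyp2c29 (-1.005, adjusted p = 0.0484) lower. The NRF2 targets Srxn1 and Txnrd1 did not pass, and their means were lower with LAL. Srxn1 was 179 ± 211 CPM in FPC-GFP and 77.7 ± 34.7 in FPC-LIPA, and Txnrd1 156 ± 38.1 and 130 ± 23.2 CPM. Cyp2b10 and Cyp1a1 did not pass either. With FPC-LIPA 31, 33 and 34 alone, edgeR called 0 of the 46 genes tested from these 5 lists, where 1.22% of all genes were called, and 11 had an unadjusted p under 0.05.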

How the data were processed

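Liver RNA of 18 male mice was sequenced, and the deposited table holds whole-number counts of reads per gene. To make these counts the authors trimmed reads with Trimmomatic, aligned them with Hisat2 2.1.0 to GRCm38 (mm10) and counted them with Feature Counts of Subread. The strand setting, the annotation version and the handling of reads with several matches are not given in the sources used here. The table has 5 columns of other vectors that were not used. Groups came from the sample labels.

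Each comparison was fitted on its 12 libraries with edgeR 4.0.16 (R 4.3.3): filterByExpr, TMM factors, the quasi-likelihood F test and Benjamini-Hochberg adjustment over all genes tested. A gene was called when its adjusted p was under 0.05 and its fold 2 or more, and also at that p alone. SE is the log2 fold change divided by the square root of F. CPM used TMM-scaled totals of all 18 libraries, and RPKM divided CPM by exon length. For Ugt1a this was the exon that no other gene on either strand overlaps. Total counts were 16632146 to 37739301 per library, and the SE also holds the spread between mice. In simulated counts of the diet comparison (14307 genes), 91 of 100 genes changed 4-fold and 60 of 100 changed 2-fold were recovered. Recovery was counted at an adjusted p under 0.05 with no fold minimum, and 8 unchanged genes were called. No other genes were changed in the simulation, while 3410 were called at that adjusted p in the real comparison, so real recovery may differ. The comparisons with FPC-LIPA were not simulated.

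Members and lists were chosen with earlier results of these data known. A member was named with values if it was called in any comparison or was the highest of its subfamily per kilobase, and list genes were named if called. The near copies and the fit of FPC-LIPA 31, 33 and 34 were added after values had been seen. Alternatives were DESeq2 1.42.0 (size factors, Wald test), library size alone, other filters, all libraries in one fit, sheet numbers 55 to 68, removal of a length trend, and each library left out. Exons came from GENCODE M21 and promoters from RefSeq (GRCm38.p6). A gene of the list of receptors and factors, and a motif, are not reported here.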

Additional observations from a re-analysis of the deposited data

Results flagged for a closer look

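Of 111 groups of 6 livers looked at (37 tested members in 3 groups), 11 had 1 liver whose gap to its nearest neighbour exceeded 0.625 of the group's range, Dixon's 95% limit. About 1 in 20 pass this limit among independent groups with normal values. The groups here share livers and their CPM were not log-transformed, so no excess can be read from the count. FPC-GFP 11 was the liver apart in 5 of them: it was lowest for Ugt1a6a (2.96 CPM, next 7.56), Ugt2b34 (272 CPM, next 420.4), Ugt2b36 (529 CPM, next 774) and Ugt3a2 (223 CPM, next 308), and highest for Ugt2b37 (44.6 CPM, next 4.70). CON-GFP 2 was highest of its group for Mgst1 (7133 CPM, next 5428) and Ugt2b34 (713 CPM, next 517). Gstm7 in CON-GFP 1 was 53.8 CPM (next 41.6), and Ugt1a9 in CON-GFP 8 was 10.1 CPM (next 4.92). Ugt2b1 in FPC-GFP 20 was 601 CPM (next 367), and Gstt2 in FPC-LIPA 39 was 335 CPM (next 174).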

How the results depend on the processing

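The 6 transferase genes called 2-fold higher on the diet were called under each alternative run. With no fold minimum, 3410 genes were called on the diet, 3102 with LAL and 3304 in FPC-LIPA against CON-GFP, with 2 transferase genes lower in each, against 1030, 1671 and 2176 genes and 0 lower with it. For FPC-LIPA against FPC-GFP, library size alone gave 1016 genes and 1 transferase gene (Gsta4), removal of the length trend 1 (Gsta4), sheet numbers 55 to 68 gave 96 genes and 0 transferase genes, and FPC-LIPA 31, 33 and 34 alone 116 genes and 0. The last 2 used fewer libraries, and the cause was not tested for any of these fits. For FPC-LIPA against CON-GFP, no filter on low counts gave 1 lower transferase gene (Ugt1a10), sheet numbers 55 to 68 gave 1107 genes, and FPC-LIPA 31, 33 and 34 alone 2 lower transferase genes, with Ugt2b36 at -0.11 (adjusted p = 0.692 in edgeR). Leaving out 1 library at a time gave 857 to 1148 genes on the diet, with 6 to 8 transferase genes higher and 0 lower. For LAL it gave 856 (without FPC-LIPA 36) to 2612 genes (without FPC-LIPA 33), with 1 to 5 higher and 0 to 2 lower. For FPC-LIPA against CON-GFP it gave 1760 to 2685 genes, with 7 to 11 higher and 0 lower. Library size alone moved the median log2 fold change of all genes from 0.01 to 0.21 on the diet, and the share of calls that were higher from 66.1 to 82.4%. Without FPC-LIPA 33 that share was 78.6% with LAL, against 90.2%. Of the values of single genes under alternatives, 1266 kept their side of the threshold, 128 lost the threshold and 31 gained it. Another 1 reversed direction, Ugt2b36 in FPC-LIPA 31, 33 and 34 alone against CON-GFP. The 1266 include values that changed sign where neither fit passed the threshold. Mgst1 in those livers against CON-GFP was such a value (-0.24, against 0.95 in the reported fit). No paired analysis was possible because the mouse numbers do not repeat across groups.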
